A study of Mus musculus with 7 samples.

Results

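The proteasome genes were the rows whose symbol begins with Psm, a letter from a to g and a digit. The pattern took 50 of the 24421 gene symbols in the count table. It took 49 genes of the proteasome, its activators and its assembly chaperones, and Psmc3ip, a recombination factor that is not a proteasome gene. Psmc3ip is set apart in what follows, and it was not called (adjusted p = 0.868). Of the 49 proteasome genes, 46 had enough counts to be tested. Psma8, the testis form of an alpha subunit, and Psmb11, the catalytic subunit of the thymus proteasome, had 0 counts in all 7 libraries. Psmd9, a chaperone of base assembly, had 7, 5 and 2 counts in the pCAF libraries, against 17, 9, 9 and 12 in the NMF libraries, too few for the test.

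The counts came from poly(A) RNA of sorted stromal cells of BALB/c mice, read at the 3′ ends of transcripts. pCAF were fibroblasts of primary mammary tumors in females labelled 8 weeks old (3 libraries), made by injecting 100000 4T1-luc cells, a mouse mammary cancer line carrying luciferase, into the lower left mammary fat pad. They were sorted as cells without Ter119, CD45 and EpCAM that carried podoplanin (PDPN), and tumors were taken at 1 cm, per the series' design text. NMF were cells of the normal mammary fat pad of untreated mice aged 12 weeks (4 libraries), sorted by the same exclusions with no positive marker. The groups also differed in age, which the design text calls matched, and in the collagenase used to free the cells, so tumor, sort, age and digestion cannot be told apart. The labels call the libraries biological replicates and do not name the animals, so the p-values reflect library-to-library spread, which may be technical.

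The proteasome is the barrel-shaped protease that destroys proteins tagged with ubiquitin. Stacked rings of alpha and beta subunits form the core, in which 3 beta subunits cut and the alpha rings form the gate. A regulatory cap of ATPases and non-ATPase subunits recognizes, unfolds and feeds in tagged proteins, and other activators can take its place. Under interferon, the cutting subunits Psmb5, Psmb6 and Psmb7 can be replaced by Psmb8, Psmb9 and Psmb10. The resulting immunoproteasome favors peptides that suit class I antigen presentation.

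Total counts ran from 1885039 to 2184389 in pCAF and from 2223198 to 4990070 in NMF libraries. Genes with any count numbered 11090 in pCAF replicate 1, which had the largest pCAF total, and 13409 and 13555 in pCAF replicates 2 and 3. In NMF libraries they numbered 13222 to 14353. Values are CPM (counts scaled to library size with edgeR's TMM factors); "called" means that the adjusted p of edgeR's quasi-likelihood test, taken over all 10535 genes tested, was under 0.05. The library labelled pCAF replicate 3 carries PDPN- in its selection label, while Pdpn stood at 987, 281 and 384 CPM in pCAF replicates 1, 2 and 3, against 44.1 to 58.4 CPM in NMF. Fibroblast markers summed to 69170 to 80670 CPM in pCAF, against 22160 to 41220 in NMF, with 5 of 8 called higher; Col1a1, Col1a2 and Col3a1 made up most of this sum, and Pdpn, also among the 5, is the sort marker. Dcn, another fibroblast marker, was not called and stood at 3867 to 6057 CPM in pCAF, against 6397 to 12050 in NMF (1.80-fold lower, adjusted p = 0.0736; 1.82-fold lower in pCAF replicates 2 and 3 against NMF replicates 1 to 3, adjusted p = 0.000425). Pdgfra stood at 1.03-fold (adjusted p = 0.916). All 10 blood endothelial markers were called lower, at a sum of 46.0 to 69.8 CPM in pCAF, against 1765 to 2928 in NMF. None was at 0 in all 3 pCAF libraries; 7 of the 10 were at 0 in pCAF replicate 1, and Tie1 and Emcn were at 0 in another pCAF library as well. Lymphatic endothelial markers, with 1 of the 2 tested called lower, summed to 16.1 to 31.5 CPM in pCAF, against 30.6 to 60.3 in NMF. Lyve1, the other, was 3.11-fold higher and not called (adjusted p = 0.335). In pCAF replicates 2 and 3 against NMF replicates 1 to 3, Lyve1 was 3.34-fold higher (adjusted p = 0.00253). Pericyte markers, with 3 of 4 called lower, summed to 66.5 to 121.5 CPM in pCAF, against 223.5 to 375 in NMF. The remaining pericyte marker, Cspg4, was 2.60-fold higher and not called (adjusted p = 0.0693). In pCAF replicates 2 and 3 against NMF replicates 1 to 3, Cspg4 was 2.81-fold higher (adjusted p = 0.000422). Of 5 leukocyte markers tested, 2 were called lower, and the list of 11 summed to 26.6 to 56.3 CPM in pCAF, against 18.5 to 168 in NMF. Ptprc, Cd3g, Cd79a, Adgre1 and Nkg7 were at 0 in every pCAF library. Among these only Ptprc was tested, and the rest had at most 10 counts in any NMF library. Csf1r was 2.32-fold higher and not called (adjusted p = 0.154). The erythroid markers were at 0 in all 7 libraries, and of 4 adipocyte markers Plin1, Lep and Cidec were at 0 in pCAF, with a sum of at most 0.554 CPM in pCAF, against 42.2 to 88.1 in NMF. Epithelial markers, with 2 of 5 tested called lower, summed to 72.7 to 231 CPM in pCAF, against 62.9 to 320 in NMF, and Krt5 was at 0 in pCAF. These bulk values cannot tell fewer cells of a type from less RNA per cell, and the part of the other cell types in the results below was not tested.

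A pair of libraries, picked after seeing the data, was set against the rest of their groups. They are called here the libraries that stood apart. The same shares were not taken for the other NMF libraries, so whether NMF replicate 4 deviates more than they do was not tested. Across all genes, 45.5% lay at least 2-fold from the mean of the other 2 pCAF libraries in pCAF replicate 1, and 19.9% lay as far from the mean of the other 3 in NMF replicate 4. Among the proteasome genes this held for 13 of 46 (28.3%) in pCAF replicate 1 and 4 of 46 (8.7%) in NMF replicate 4. No proteasome gene differed 2-fold between pCAF replicates 2 and 3. In pCAF replicate 1, 8 genes were high, by 2.19-fold for Psmc2 up to 3.98-fold for Psmb7 and 3.99-fold for Psmc5. In the same library 5 genes were low, and Psmb2, a structural beta subunit, had 6 counts there, against 171 and 154 in pCAF replicates 2 and 3. Results that rest on these libraries are therefore also given for pCAF replicates 2 and 3 against NMF replicates 1 to 3, a comparison added after seeing the data and called the reduced comparison here. Both libraries were left out for values that enter its tests, so its adjusted p-values are descriptive only. It called 52.7% of all genes, against 28.4% with all libraries.

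**Figure D1:**
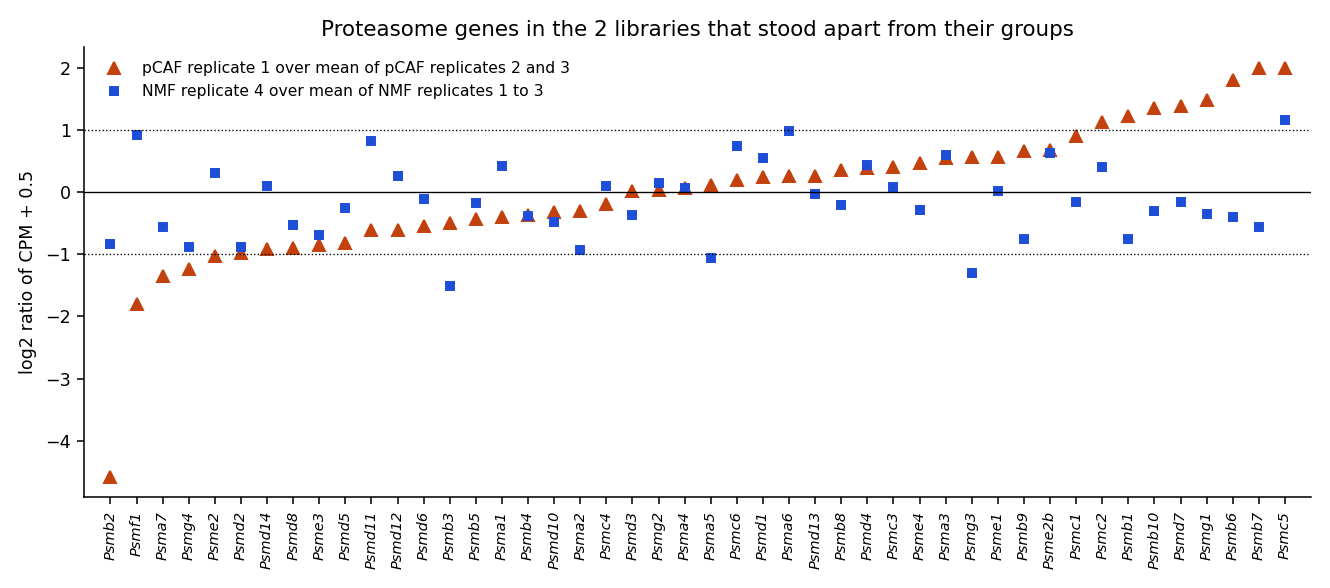
Log2 ratio of CPM in pCAF replicate 1 over the mean of pCAF replicates 2 and 3 (triangles), and in NMF replicate 4 over the mean of NMF replicates 1 to 3 (squares), for the 46 proteasome genes tested; dotted lines mark 2-fold. The triangles run from Psmb2, 23.9-fold low, to Psmc5, 3.99-fold high, and 8 lie above the upper line and 5 below the lower.

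Of the 46 proteasome genes tested, 16 were called (34.8%), where 28.4% of all genes were. The directions were unequal: 14 genes rose in pCAF (30.4%, where 14.3% of all genes rose) and 2 fell (4.35%, where 14.2% of all genes fell). The median log2 fold change, pCAF over NMF, was 0.60 over the proteasome genes and -0.02 over all genes, and 36 of the 46 were positive. The groups did not overlap for 26 genes (56.5%, against 40.4% of all genes). These were 24 with every pCAF library above every NMF library (52.2%, against 19.0% of all genes) and 2 the other way (4.35%, against 21.4%). The counts by role below are to be read against these shares of all genes. In the reduced comparison 25 of 46 were called (54.3%, where 52.7% of all genes were), 21 of them higher (45.7%, against 25.9% of all genes) and 4 lower (8.7%, against 26.9%). Scaling by library totals instead of TMM shifted the median of all genes to -0.26, and the proteasome median stood 0.63 above it, against 0.62 with TMM; 37.1% of all calls were then higher in pCAF, against 50.2%. In all, proteasome genes took 0.786%, 0.713% and 0.721% of the counts in pCAF replicates 1 to 3, against 0.587%, 0.62%, 0.586% and 0.535% in NMF replicates 1 to 4.

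**Figure D2:**
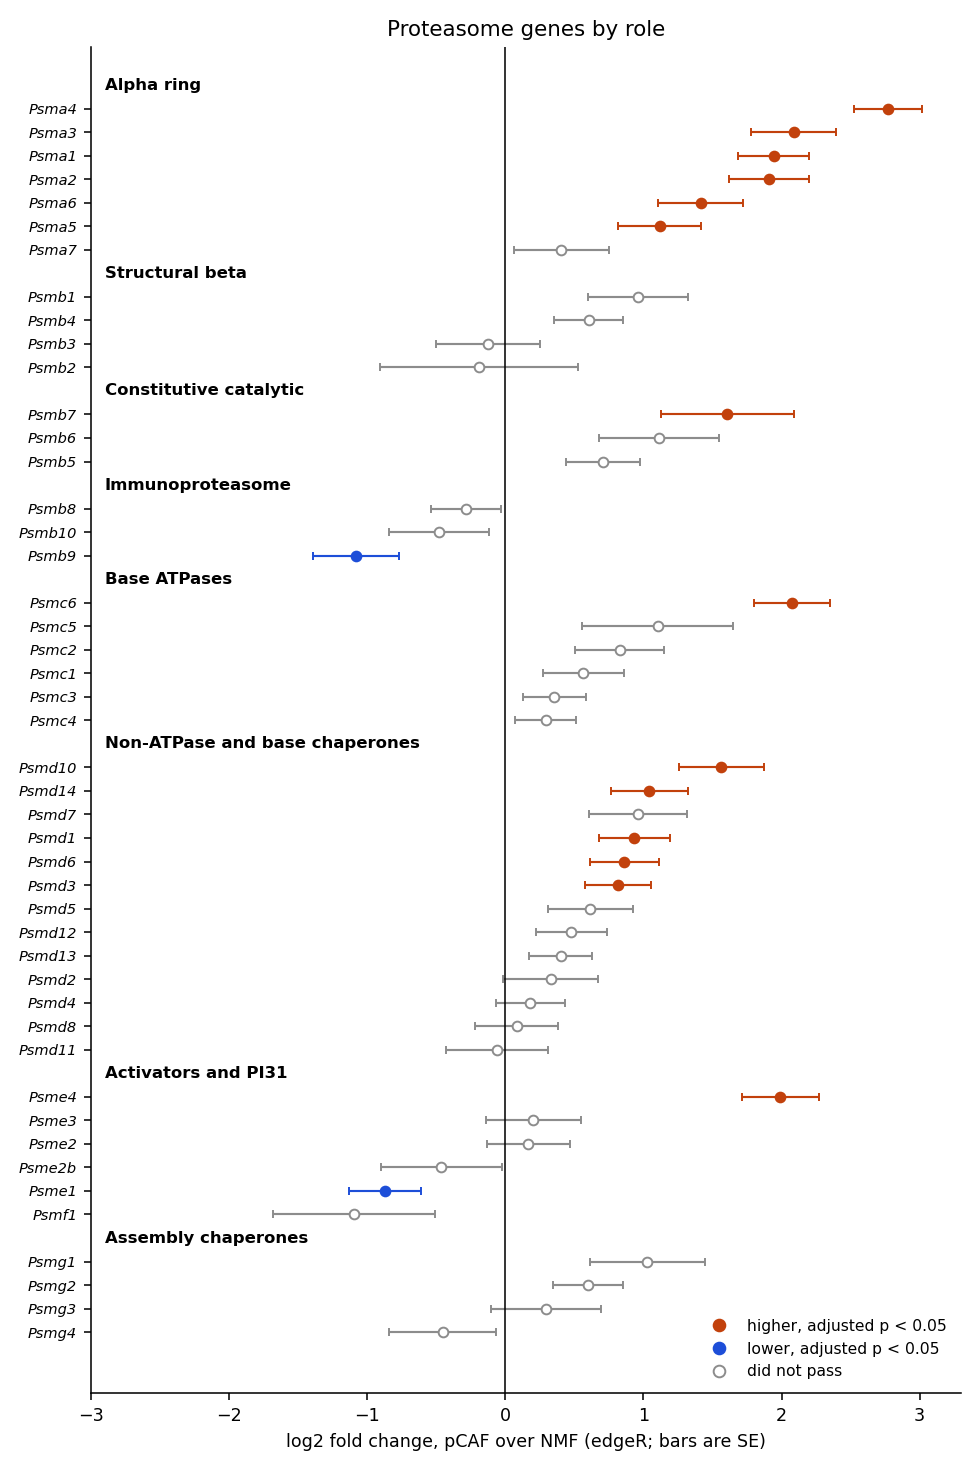
Log2 fold change, pCAF over NMF, of the 46 proteasome genes tested, by role, with bars for the standard error; filled points passed the test. The alpha ring holds the highest value, 2.77 for Psma4, and the immunoproteasome subunits all lie below 0, with Psmb9 at -1.08.

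The alpha ring rose almost as a whole. Of its 7 genes tested, 6 rose in pCAF, with no overlap between the groups, and only Psma7 was not called; the median log2 fold change was 1.91. Psma4 had 143, 122 and 151 CPM in pCAF replicates 1 to 3, against 23.2, 17.3, 19.7 and 21.1 CPM in NMF replicates 1 to 4. The lowest pCAF library thus stood far above the highest NMF library, and pCAF replicate 1 and NMF replicate 4 lay within their groups. It averaged 139 ± 14.99 CPM in pCAF (SD, n = 3) and 20.3 ± 2.46 CPM in NMF (SD, n = 4), a 6.81-fold rise (log2 2.77, SE 0.25; adjusted p = 5.65e-05).

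Psma1 had 104, 127 and 148 CPM in pCAF, against 31.7, 29.1, 29.6 and 40.5 CPM in NMF, a 3.85-fold rise (log2 1.94, SE 0.26; adjusted p = 0.000462). Psma3 had 219, 139 and 162 CPM in pCAF, against 32.4, 27.9, 47.5 and 54.4 CPM in NMF, a 4.25-fold rise (log2 2.09, SE 0.31; adjusted p = 0.000869). In both genes every pCAF library was far above every NMF library. Psma2 rose 3.75-fold (271 to 336 CPM in pCAF, against 49.7 to 99.6 in NMF; adjusted p = 0.00102). Psma6 rose 2.66-fold (143 to 172 CPM in pCAF, against 44.3 to 91.5 in NMF; adjusted p = 0.00705). Psma5 rose 2.17-fold (146 to 160 CPM in pCAF, against 38.5 to 86.2 in NMF; adjusted p = 0.0194), and it no longer passed once NMF replicate 1 was left out (adjusted p = 0.0583).

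Psma7, the remaining alpha subunit, divided the pCAF libraries. It had 230.1, 563 and 607 CPM in pCAF replicates 1 to 3, against 385, 379, 385 and 259 CPM in NMF replicates 1 to 4. Replicates 2 and 3 of pCAF lay above all NMF libraries and replicate 1 below them. The 1.33-fold difference was not called (adjusted p = 0.420), while it was 1.66-fold without pCAF replicate 1 (adjusted p = 0.0305) and 1.52-fold in the reduced comparison (adjusted p = 0.00481). Near-identical copies of their 3′ ends exist elsewhere in the genome for Psma3 (3 copies), Psma4 (1) and Psma5 (2), and how reads shared with them were counted is not given in the sources used here. The 3′ end of Psma4 also overlaps AY074887 on the other strand.

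**Figure D3:**
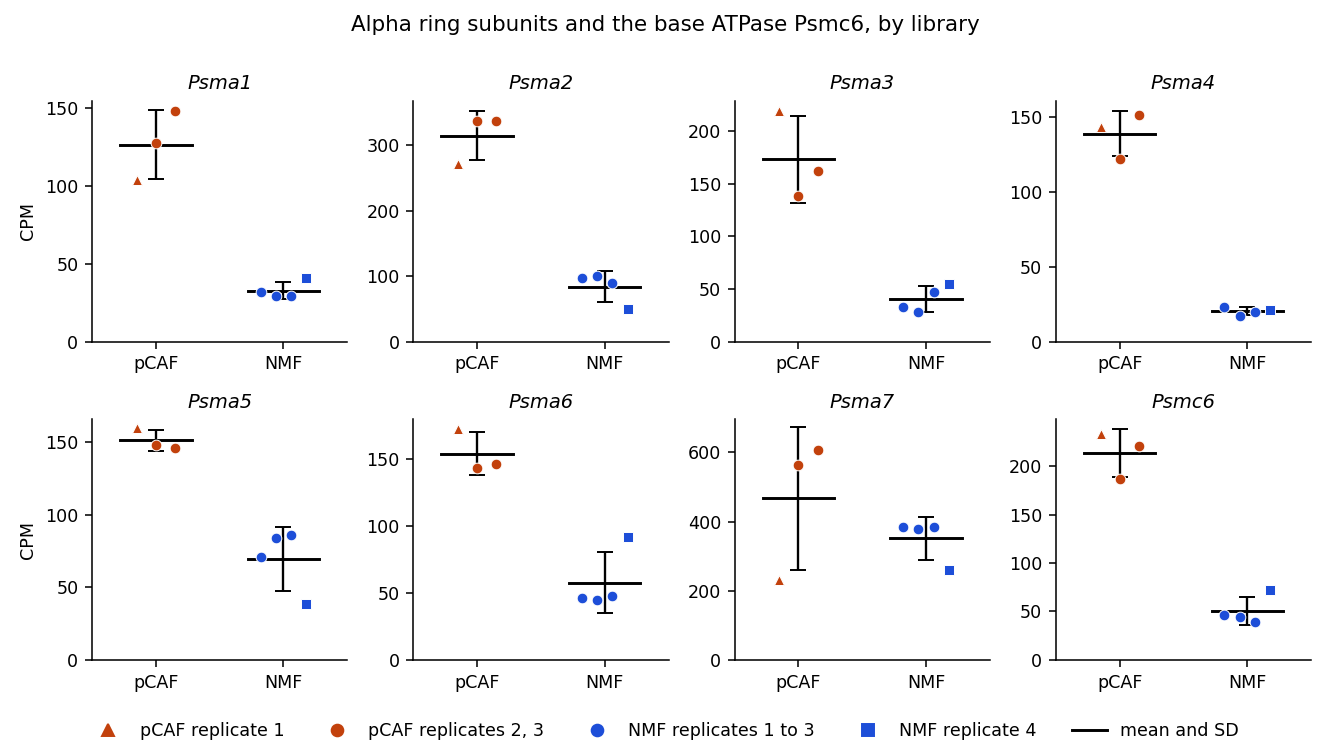
CPM of the 7 alpha-ring genes and of Psmc6, an ATPase of the cap, in each library, pCAF left and NMF right, with the mean and SD as bars. The library that stood apart is a triangle in pCAF and a square in NMF. Psma1 to Psma6 show every pCAF point above every NMF point, and Psma7 has its pCAF triangle at 230.1 CPM, under all NMF points.

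The structural beta subunits, which complete the ring without cutting, were not called by edgeR in any of 4 genes, with 2 higher at an unadjusted p under 0.05 and 2 called higher by DESeq2. Psmb1 had 1197, 530.1 and 494 CPM in pCAF, against 389, 445, 438 and 251 CPM in NMF. Psmb4 had 705, 949 and 876 CPM in pCAF, against 523, 621, 621 and 452 CPM in NMF. In both genes the pCAF libraries lay above all NMF libraries, at 1.95-fold (adjusted p = 0.0730) for Psmb1 and 1.52-fold (adjusted p = 0.0957) for Psmb4; in the reduced comparison Psmb1 was at 1.201-fold (adjusted p = 0.191) and Psmb4 at 1.54-fold (adjusted p = 0.00464). Psmb3 overlapped, with 63.2, 79.99 and 98.1 CPM in pCAF, against 103.5, 107.7, 103.8 and 36.4 CPM in NMF (adjusted p = 0.843). Psmb2 was not called either (adjusted p = 0.873), and without pCAF replicate 1 it stood at 1.29-fold (adjusted p = 0.327).

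The constitutive cutting subunits lay higher in pCAF in all 3 genes without overlap, and Psmb7 was called. Of all genes, 19.0% lay higher without overlap and 14.3% were called higher. Psmb5, with chymotrypsin-like activity, had 61.6, 76.0 and 89.8 CPM in pCAF, against 36.7, 53.6, 52.8 and 42.4 CPM in NMF. The difference was 1.64-fold (log2 0.71, SE 0.27; adjusted p = 0.0722), and it passed without pCAF replicate 1 (1.78-fold, adjusted p = 0.0199). Psmb6, with caspase-like activity, had 1038, 290.1 and 305 CPM in pCAF, against 243, 289, 273 and 203 CPM in NMF. Replicate 2 of pCAF stood barely above NMF replicate 2. The 2.16-fold difference (adjusted p = 0.0805) was 1.18-fold without pCAF replicate 1 (adjusted p = 0.413) and 1.102-fold in the reduced comparison (adjusted p = 0.5002).

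Psmb7, with trypsin-like activity, had 291, 68.2 and 77.0 CPM in pCAF, against 57.2, 43.1, 55.6 and 35.1 CPM in NMF. It was called 3.05-fold higher (log2 1.61, SE 0.48; adjusted p = 0.0308), and here too replicate 1 carried most of the size. Without pCAF replicate 1 it was 1.52-fold higher (adjusted p = 0.0890), and the call was lost without NMF replicate 1 (adjusted p = 0.0688), 2 (0.0890), 3 (0.0638) or 4 (0.0797). It did not pass in the reduced comparison either (1.39-fold, adjusted p = 0.0538). The 3′ end of Psmb7 overlaps Nek6 on the other strand, and whether the counting used strand is not given in the sources used here.

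Of the 3 immunoproteasome subunits, Psmb9 fell in pCAF and Psmb8 and Psmb10 were not called. Psmb9, which takes the place of Psmb6, had 59.3, 40.0 and 34.4 CPM in pCAF, against 105.8, 112.7, 97.2 and 62.4 CPM in NMF. All pCAF libraries lay below all NMF libraries, and the library nearest to the other group was the one that stood apart in each group. Psmb9 fell 2.12-fold (log2 -1.08, SE 0.31; adjusted p = 0.0263). Psmb9 did not pass without pCAF replicate 2 (adjusted p = 0.0898) or 3 (0.102), or NMF replicate 1 (0.0831), 2 (0.0768) or 3 (0.0729), with folds of 1.89 to 2.08, and in the reduced comparison it was 2.84-fold lower (adjusted p = 6.26e-06).

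Psmb8, which replaces Psmb5, had 251, 220.2 and 173 CPM in pCAF, against 243, 325, 243 and 234 CPM in NMF. The groups overlapped through pCAF replicate 1, and the 1.22-fold lower level was not called (log2 -0.28, SE 0.25; adjusted p = 0.441). Psmb10, which replaces Psmb7, had 360 CPM in pCAF replicate 1 and 146 and 136 in replicates 2 and 3, against 313, 356, 272 and 254 CPM in NMF. It was not called over all libraries (1.40-fold lower; adjusted p = 0.357), and without pCAF replicate 1 it was 2.13-fold lower (adjusted p = 0.00467). In the reduced comparison Psmb8 was 1.38-fold lower (adjusted p = 0.0485) and Psmb10 2.24-fold lower (adjusted p = 4.76e-05), so that all 3 immunoproteasome genes passed there. That comparison was added after seeing the data and called 52.7% of all genes, with 26.9% of all genes called lower.

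**Figure D4:**
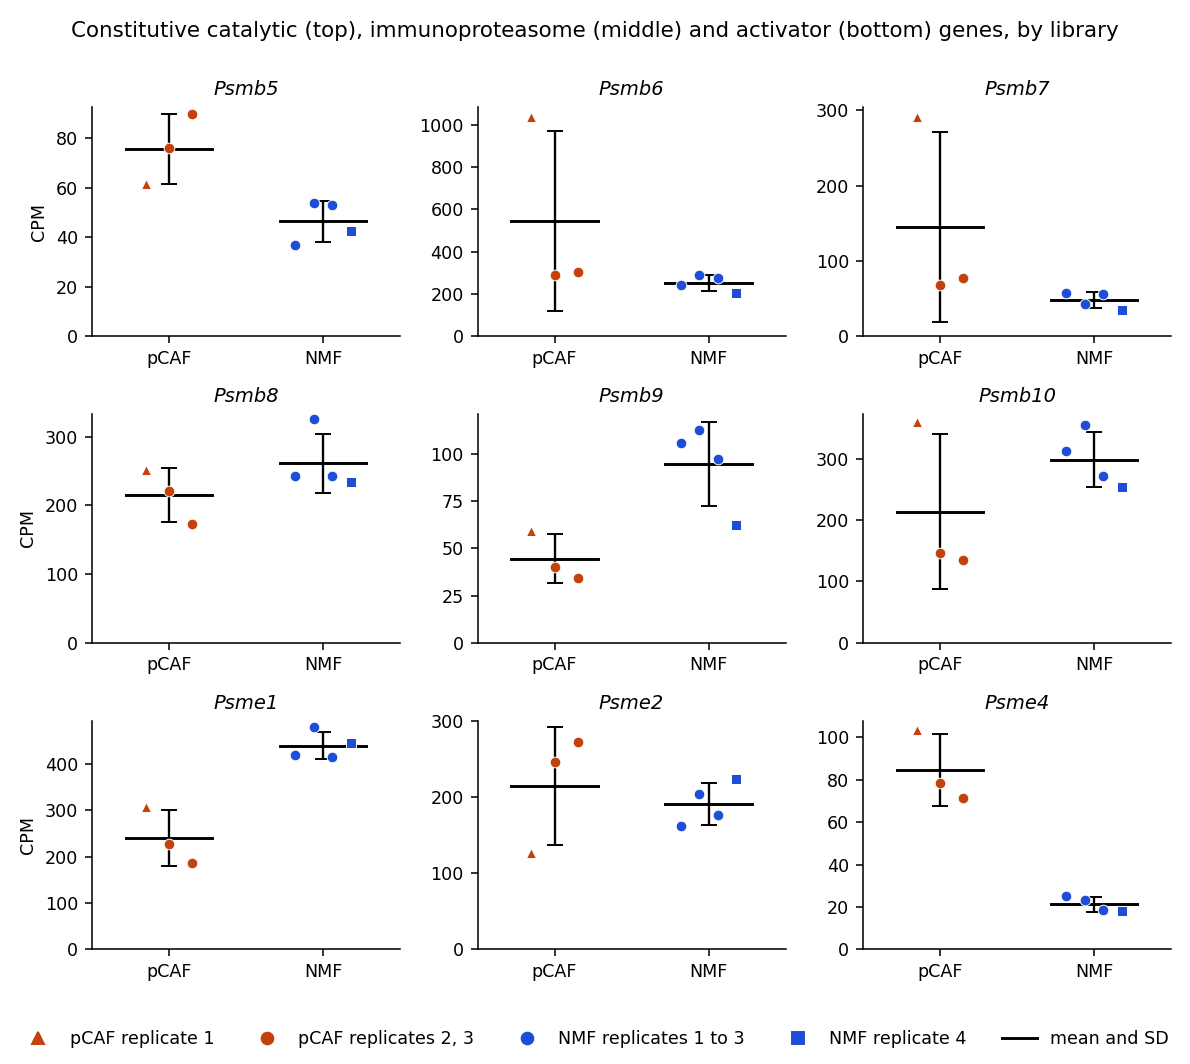
CPM of the catalytic beta subunits and the activators in each library, pCAF left and NMF right, with the mean and SD as bars; triangles mark pCAF replicate 1 and squares NMF replicate 4. Psmb9 and Psme1 show every pCAF point under every NMF point, Psme4 shows every pCAF point (71.5 to 104 CPM) above every NMF point (18.1 to 25.1 CPM), and Psmb6, Psmb7 and Psmb10 have their pCAF triangle far above the other pCAF points.

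Setting each immunoproteasome subunit against the one it replaces removes the library scaling, since both counts come from the same library. For Psmb8 over Psmb5 the ratio was 4.07, 2.89 and 1.92 in pCAF replicates 1 to 3, against 6.60, 6.05, 4.59 and 5.51 in NMF replicates 1 to 4. For Psmb9 over Psmb6 it was 0.0574, 0.139 and 0.114 in pCAF, against 0.437, 0.390, 0.356 and 0.308 in NMF. For Psmb10 over Psmb7 it was 1.24, 2.14 and 1.76 in pCAF, against 5.47, 8.23, 4.88 and 7.23 in NMF. All 3 ratios were lower in every pCAF library than in every NMF library, pCAF replicate 1 included. In that library Psmb6 and Psmb7 stood 3.48- and 3.98-fold above the mean of the other pCAF libraries. Its Psmb8 (251 CPM) lay inside the NMF range, its Psmb10 (360 CPM) above every NMF library and its Psmb9 (59.3 CPM) below every NMF library. A ratio of 2 genes depends on how well each 3′ end is captured, so it is read between libraries and not as a ratio of proteins. Psmb5 has 2 near-identical copies of its 3′ end in the genome, and the 3′ end of Psmb8 overlaps Gm20496 on the other strand.

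The mean log2 ratio of Psmb8 over Psmb5 was 1.499 ± 0.54 in pCAF and 2.50 ± 0.22 in NMF (SD, n = 3 and 4), a difference of -0.996 or 1.99-fold. For Psmb9 over Psmb6 it was -3.37 ± 0.67 in pCAF and -1.44 ± 0.21 in NMF, a difference of -1.93 or 3.82-fold. For Psmb10 over Psmb7 it was 0.74 ± 0.40 in pCAF and 2.66 ± 0.35 in NMF, a difference of -1.92 or 3.78-fold. Each pair gave an exact two-sided permutation p of 0.0571, also after adjustment over the 3 pairs; this is the smallest p that 3 against 4 libraries allow, so no pair could pass 0.05. In the reduced comparison the differences were -1.27, -1.65 and -1.64.

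As a share of the counts of all 6 cutting subunits, the immunoproteasome genes made up 32.5%, 48.3% and 42.1% in pCAF replicates 1 to 3. In NMF replicates 1 to 4 the share was 66.3%, 67.3%, 61.6% and 66.3%. The Wilson 95% intervals, which cover counting error only, reached at most 50.9% in pCAF and at least 59.8% in NMF, so the groups stayed apart. In pCAF replicate 1 the immunoproteasome genes summed to 670.5 CPM, inside the NMF range of 551 to 794 CPM. The constitutive cutting subunits summed to 1390 CPM there, against 434 and 472 CPM in pCAF replicates 2 and 3. Beside these ratios, the summed leukocyte markers given above were also lower in every pCAF library than in NMF replicates 1 to 3, and the summed blood endothelial markers lower than in all 4 NMF libraries. In NMF replicate 4 the leukocyte sum was 18.5 CPM, below every pCAF library, and the blood endothelial sum was 1765 CPM. The part of these cell types in the ratios was not tested.

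**Figure D5:**
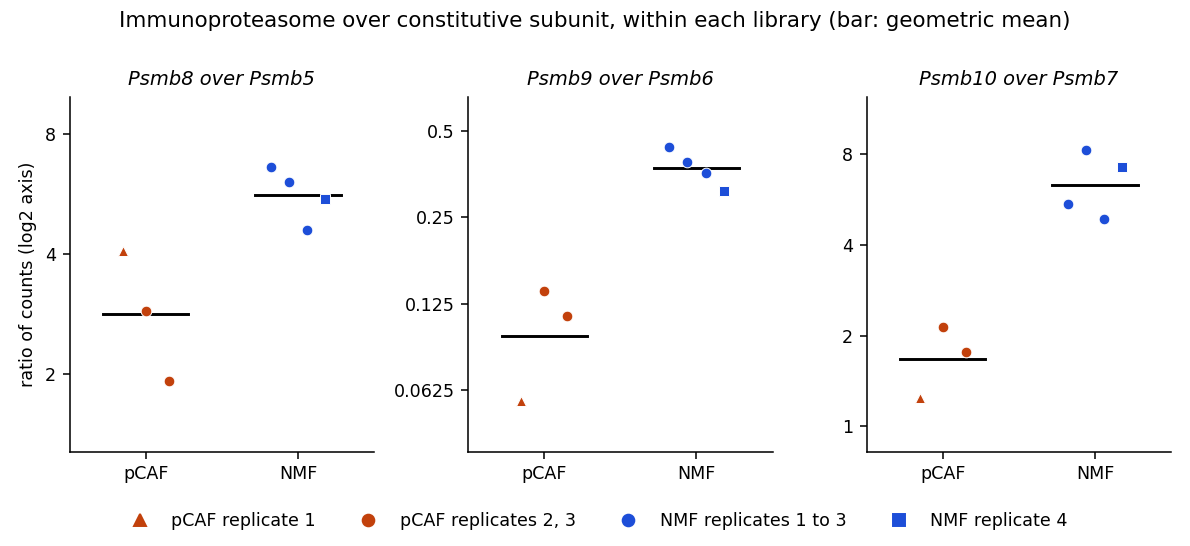
Ratio of counts of each immunoproteasome subunit to the subunit it replaces, within each library, on a log2 axis, with pCAF left and NMF right and bars at the geometric mean; triangles mark pCAF replicate 1 and squares NMF replicate 4. In each of the 3 pairs the pCAF points lie under all NMF points, with highest pCAF ratios of 4.07, 0.139 and 2.14 and lowest NMF ratios of 4.59, 0.308 and 4.88.

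In mm10 with the GENCODE M21 annotation, Psmb9 (chr17:34181987-34187764, minus strand) and Psmb8 (chr17:34197721-34201454, plus strand) lie in the major histocompatibility region, while Psmb10 lies at chr8:105935735-105938444 on the minus strand. Psmb9 shares its start region with Tap1, a subunit of the peptide transporter: the genes run in opposite directions with starts 211 bp apart. Tap1 had 59.3, 87.9 and 68.2 CPM in pCAF, against 71.8, 63.8, 58.4 and 87.6 CPM in NMF (adjusted p = 0.955). The groups overlapped for Tap1 and did not for Psmb9, and the difference between these neighbors was not tested. Tap2, the other transporter subunit, downstream of Psmb8, fell 2.58-fold (45.4 to 54.4 CPM in pCAF, against 110.9 to 139 in NMF; adjusted p = 0.00221).

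The base ATPases, the ring of motors that unfolds substrates and opens the gate, gave 1 call in 6 genes. Psmc6 had 233, 186 and 221 CPM in pCAF, against 46.0, 44.3, 39.4 and 72.3 CPM in NMF. Every pCAF library was far above the highest NMF library. It rose 4.21-fold (214 ± 24.4 CPM in pCAF, n = 3, and 50.5 ± 14.8 CPM in NMF, n = 4, SD; log2 2.08, SE 0.28; adjusted p = 0.0005).

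The other ATPases of that ring did not pass. Psmc2 had 403, 190 and 178 CPM in pCAF, against 129, 132, 141 and 176 CPM in NMF, without overlap (1.78-fold; adjusted p = 0.0792). Psmc5 had 259, 61.4 and 67.6 CPM in pCAF, against 59.1, 30.4, 47.5 and 102.5 CPM in NMF. Its 2.15-fold difference (adjusted p = 0.162) was 1.06-fold without pCAF replicate 1 (adjusted p = 0.882) and 1.399-fold in the reduced comparison (adjusted p = 0.101). Psmc1, Psmc3 and Psmc4 stood at 1.48-, 1.28- and 1.23-fold, with adjusted p-values of 0.179, 0.279 and 0.362. The groups also did not overlap for Psmc3 and Psmc4. In the reduced comparison Psmc2 also passed (1.36-fold; adjusted p = 0.0290).

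Of the 13 non-ATPase subunits and base chaperones tested, 5 rose and none fell, with a median log2 fold change of 0.62; none was lower at an unadjusted p under 0.05 or by DESeq2. Psmd10, known as gankyrin, a chaperone of base assembly, had 38.3, 43.9 and 51.5 CPM in pCAF, against 13.9, 15.2, 19.7 and 11.6 CPM in NMF. It rose 2.96-fold without overlap (log2 1.56, SE 0.31; adjusted p = 0.00408). Psmd14, the enzyme that cuts the ubiquitin chain off the substrate, had 88.2, 157 and 178 CPM in pCAF, against 70.7, 60.0, 71.1 and 71.7 CPM in NMF. It rose 2.06-fold (log2 1.04, SE 0.28; adjusted p = 0.0191), with the pCAF library that stood apart nearest to NMF.

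Psmd1, the scaffold of the base that binds ubiquitin-handling factors, had 353, 271 and 328 CPM in pCAF, against 163, 149, 134 and 218 CPM in NMF. It rose 1.91-fold without overlap (318 ± 41.9 CPM in pCAF, n = 3, and 166 ± 36.9 CPM in NMF, n = 4, SD; adjusted p = 0.0205). The 3′ end of Psmd1 overlaps Gm21972 on the same strand, with near-identical sequence. The lid subunits Psmd6 (118 to 175 CPM in pCAF, against 72.6 to 98.2 in NMF) and Psmd3 (191 to 219 CPM in pCAF, against 95.2 to 139 in NMF) rose 1.82-fold (adjusted p = 0.0259) and 1.76-fold (adjusted p = 0.0264). Psmd7, the partner of Psmd14 in the lid, and Psmd13, another lid subunit, also did not overlap but were not called (1.95-fold, adjusted p = 0.0663, and 1.32-fold, adjusted p = 0.214). Without pCAF replicate 1 Psmd7 was at 1.26-fold (adjusted p = 0.191), and in the reduced comparison at 1.23-fold (adjusted p = 0.151). Psmd2, Psmd4, Psmd5, Psmd8, Psmd11 and Psmd12 were not called, at 0.960-fold for Psmd11 to 1.53-fold for Psmd5, and Psmd4, a ubiquitin receptor, stood at 1.14-fold. In the reduced comparison Psmd5 and Psmd12 passed as well.

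The calls of 4 of these 5 genes depended on single libraries, with folds that stayed between 1.68 and 2.17 except for Psmd14 without pCAF replicate 1 (2.44-fold, adjusted p = 0.000761). Psmd14 was lost without pCAF replicate 2 (adjusted p = 0.0679) or 3 (0.0857), or NMF replicate 1 (0.0528) or 2 (0.0650). Psmd1 was lost without pCAF replicate 3 (0.0622), or NMF replicate 1 (0.0671), 2 (0.0684) or 3 (0.0709). Psmd6 was lost without pCAF replicate 2 (0.0899) or 3 (0.0967), or NMF replicate 1 (0.0830) or 2 (0.0660). Psmd3 was lost without pCAF replicate 2 (0.0891) or 3 (0.0585), or NMF replicate 2 (0.0843) or 3 (0.0585). Psmd10 passed with each library left out in turn. Scaled by library totals, Psmd1, Psmd3, Psmd6, Psmd14 and Psmb7 did not pass (adjusted p = 0.0648, 0.0942, 0.0938, 0.0651 and 0.0515).

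Of the 6 activators and PI31, Psme4 rose, Psme1 fell and the other 4 were not called. Psme4, a large nuclear cap that binds the core in place of the ATPase cap, had 104, 78.3 and 71.5 CPM in pCAF, against 25.1, 23.2, 18.7 and 18.1 CPM in NMF. The groups were far apart, and Psme4 rose 3.98-fold (84.5 ± 17.0 CPM in pCAF, n = 3, and 21.3 ± 3.43 CPM in NMF, n = 4, SD; log2 1.99, SE 0.28; adjusted p = 0.000594). Psme1, a subunit of the interferon-inducible activator ring that works with the immunoproteasome, had 306, 228 and 187 CPM in pCAF, against 418, 478, 416 and 445 CPM in NMF. It fell 1.83-fold without overlap (240.3 ± 60.6 CPM in pCAF, n = 3, and 439 ± 29.2 CPM in NMF, n = 4, SD; log2 -0.87, SE 0.26; adjusted p = 0.0291).

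Psme1 did not pass without pCAF replicate 2 (adjusted p = 0.101) or 3 (0.127), or NMF replicate 1 (0.0748), 2 (0.0743) or 3 (0.0708), at 1.64- to 1.85-fold, and in the reduced comparison it was 2.12-fold lower (adjusted p = 7.96e-05). The 3′ end of Psme1 has a near-identical copy in the genome and overlaps Emc9 on the other strand.

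Psme2, which forms one ring with Psme1, was not called, and the difference between these genes was not tested. It had 127, 246 and 273 CPM in pCAF, against 162, 204, 177 and 224 CPM in NMF. The groups overlapped through pCAF replicate 1, and the difference was 1.12-fold (adjusted p = 0.720), against 1.43-fold higher in the reduced comparison (adjusted p = 0.0184). Reads of Psme2 and its near-identical copy Psme2b cannot be told apart with certainty, and Psme2b, at 8.31 to 14.97 CPM in pCAF, against 10.04 to 20.9 in NMF, was not called (adjusted p = 0.471).

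Within each library Psme1 gave 70.7%, 48.1% and 40.7% of the counts of Psme1 and Psme2 together in pCAF replicates 1 to 3, against 72.1%, 70.1%, 70.1% and 66.5% in NMF replicates 1 to 4. Replicate 1 of pCAF fell inside the NMF range and the other 2 far below it. Psme4 gave 18.5%, 13.2% and 12.5% of the counts of Psme1 to Psme4 in pCAF, against 3.91%, 3.17%, 2.88% and 2.56% in NMF, with no overlap. Psme3, the nuclear form of the ring, was not called (22.7 to 41.7 CPM in pCAF, against 20.7 to 37.1 in NMF; adjusted p = 0.698). Psmf1, the proteasome inhibitor PI31, was low throughout, with 2.22, 10.7 and 7.21 CPM in pCAF, against 7.34, 14.4, 13.0 and 22.4 CPM in NMF (2.14-fold lower, adjusted p = 0.192). Its log2 fold change of -1.10 was the lowest of the 46 proteasome genes tested.

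None of the 4 chaperones of core assembly was called by edgeR or DESeq2, and 2 were higher at an unadjusted p under 0.05. Psmg1 had 108, 37.2 and 39.4 CPM in pCAF, against 22.4, 35.9, 37.7 and 24.8 CPM in NMF; its 2.04-fold difference (adjusted p = 0.0899) was 1.27-fold without pCAF replicate 1 (adjusted p = 0.372) and 1.19-fold in the reduced comparison (adjusted p = 0.425). Psmg2, its partner in the dimer that builds the alpha ring, had 48.2, 50.1 and 44.3 CPM in pCAF, against 33.6, 27.9, 30.3 and 33.8 CPM in NMF. These groups did not overlap, at 1.51-fold (adjusted p = 0.105; 1.53-fold and adjusted p = 0.0246 in the reduced comparison). Psmg4, the partner of Psmg3, had 29.9, 84.5 and 58.2 CPM in pCAF, against 85.0, 107.2, 75.3 and 48.4 CPM in NMF (adjusted p = 0.424), and Psmg3 was not called (adjusted p = 0.627).

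Promoters were read from RefSeq (GRCm38.p6) as the 250 bases before and 50 after each gene's start. Of the 49 proteasome genes, 41 matched, with 44 promoters; Psma8, Psmb1, Psmb2, Psmb7, Psmc3, Psmd3, Psmd7 and Psmg2 had no entry. Both strands were searched for motifs of known regulators of these genes, and a match is a description of letters, not a site. Of the 41 matched genes, 12 rose and 2 fell, and the counts of called genes by motif are to be read against these. Psmd9 and Psmb11, among the matched genes, were not tested. The letters TGACNNNGC, the core of the antioxidant response element to which NFE2L1 and NFE2L2 bind, were in 13.6% of these promoters and in 12.4% of all 32851. The genes were Psmb5, Psmb6, Psmc6, Psmd12, Psmd9 and Psme4, and Psmc6 and Psme4 are among those that rose. The letters GAAANNGAAA, which interferon regulatory factors bind, were in 11.4% of these promoters and 3.44% of all, in Psmb3, Psmd4, Psmd9, Psme1 and Psmg4. Of these 5 genes Psmd9 was not tested, and only Psme1 was called, and it fell. These letters were not in the promoters of Psmb8, Psmb9 or Psmb10. CCAAT was in 31.8% of these promoters and 37.4% of all, in 14 genes, of which Psma1, Psma2, Psma3, Psma6, Psmd10 and Psmd14 rose and Psmb9 fell.

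The promoters of 2 genes that rose (Psmc6 and Psme4) and 2 that fell (Psmb9 and Psme1), chosen after their values were seen, are shown 5′ to 3′ on the strand of the gene, with the match to one of these motifs in capitals. In Psmc6 (chr14:45329574-45329873, plus strand) and Psme4 (chr11:30771525-30771824, plus strand) the capitals match TGACNNNGC on the other strand, from base 24 and base 244 of the window. In Psmb9 (chr17:34187281-34187580, minus strand) they match CCAAT on the other strand from base 243, and the annotated start of Tap1 lies inside the window. The RefSeq starts that place the windows of all these genes are not the GENCODE starts, from which the distance to Tap1 was taken. In Psme1 (chr14:55578244-55578543, plus strand) they match GAAANNGAAA on the other strand from base 260, after the start.
Psmc6: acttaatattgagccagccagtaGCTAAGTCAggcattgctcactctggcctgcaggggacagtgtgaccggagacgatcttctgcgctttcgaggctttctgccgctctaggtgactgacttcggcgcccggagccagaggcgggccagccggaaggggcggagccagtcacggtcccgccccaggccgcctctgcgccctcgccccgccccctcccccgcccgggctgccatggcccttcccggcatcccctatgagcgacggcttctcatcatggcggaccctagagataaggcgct
Psme4: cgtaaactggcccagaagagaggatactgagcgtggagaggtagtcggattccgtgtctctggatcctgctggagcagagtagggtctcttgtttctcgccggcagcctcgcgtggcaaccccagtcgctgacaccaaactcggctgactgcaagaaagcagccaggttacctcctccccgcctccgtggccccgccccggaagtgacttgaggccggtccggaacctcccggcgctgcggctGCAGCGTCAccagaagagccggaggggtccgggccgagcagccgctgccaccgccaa
Psmb9: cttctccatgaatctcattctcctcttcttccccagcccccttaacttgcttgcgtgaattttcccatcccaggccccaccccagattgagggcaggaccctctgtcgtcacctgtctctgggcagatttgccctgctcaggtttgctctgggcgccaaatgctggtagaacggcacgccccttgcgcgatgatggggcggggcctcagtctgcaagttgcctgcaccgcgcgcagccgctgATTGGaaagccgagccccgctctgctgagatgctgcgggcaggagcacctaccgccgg
Psme1: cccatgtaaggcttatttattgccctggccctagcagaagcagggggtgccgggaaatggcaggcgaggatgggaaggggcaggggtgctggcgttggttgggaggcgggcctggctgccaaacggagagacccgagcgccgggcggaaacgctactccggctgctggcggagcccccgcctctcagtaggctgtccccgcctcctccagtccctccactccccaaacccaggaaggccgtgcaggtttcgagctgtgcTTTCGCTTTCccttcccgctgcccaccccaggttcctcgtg

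Genes that work with the proteasome were taken as 4 lists, and each list is given by counts. These counts are to be read against all genes tested, of which 14.3% were called higher in pCAF and 14.2% lower. Of 18 proteasome-associated factors and assembly genes tested, 1 rose and none fell, with a median log2 fold change of 0.17; none was lower at an unadjusted p under 0.05 or by DESeq2. It was Shfm1, the small lid subunit also called Sem1, whose symbol the pattern does not match. It had 181, 332 and 356 CPM in pCAF, against 127, 185, 167 and 84.2 CPM in NMF, with pCAF replicate 1 just under NMF replicate 2 (2.06-fold; adjusted p = 0.0433). Shfm1 passed without pCAF replicate 1 and not without any other single library (adjusted p = 0.124 and 0.138 without pCAF replicates 2 and 3, and 0.1135, 0.0560, 0.0677 and 0.0646 without NMF replicates 1 to 4). Of 11 ubiquitin genes, activating enzymes and VCP extraction factors tested, 1 rose and none fell, with a median of -0.21, while 1 was lower at an unadjusted p under 0.05 and 1 by DESeq2. The gene that rose was Rps27a, which encodes ubiquitin fused to a ribosomal protein (385 to 1026 CPM in pCAF, against 154 to 194 in NMF; 4.52-fold, adjusted p = 0.00114).

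Of 11 genes tested from the NFE2L1 pathway, which restores proteasome genes when the proteasome is blocked, 2 rose and none fell, with a median of -0.27; 2 were lower at an unadjusted p under 0.05, and none by DESeq2. The genes that rose were Ogt, the enzyme that adds N-acetylglucosamine to proteins (34.9 to 39.9 CPM in pCAF, against 11.2 to 19.0 in NMF; 2.60-fold, adjusted p = 0.00829), and Syvn1, a ubiquitin ligase of the endoplasmic reticulum (181 to 326 CPM in pCAF, against 78.6 to 117 in NMF; 2.34-fold, adjusted p = 0.0116). Nfe2l1 itself was not called (95.2 to 125 CPM in pCAF, against 102 to 180 in NMF; adjusted p = 0.497).

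Of 19 genes of interferon signalling and class I peptide supply tested, 3 rose and 4 fell, with a median of 0.03. Among those that fell were Tap2, given above, Tapbp, which ties the transporter to class I molecules (223 to 296 CPM in pCAF, against 632 to 747 in NMF; 2.57-fold, adjusted p = 0.00256), and Irf9, part of the interferon response complex (56.5 to 82.1 CPM in pCAF, against 141 to 207 in NMF; 2.49-fold, adjusted p = 0.00484). The remaining one was Ifngr1, a chain of the interferon gamma receptor (37.1 to 80.5 CPM in pCAF, against 78.8 to 165 in NMF; 2.59-fold lower, adjusted p = 0.0201). Ifngr1 did not pass without pCAF replicate 3 (adjusted p = 0.0788), or NMF replicate 1 (0.0592), 2 (0.0586) or 3 (0.0529). Canx, a chaperone of class I heavy chains, rose 3.44-fold (129 to 163 CPM in pCAF, against 32.1 to 67.4 in NMF; adjusted p = 0.00222), as did B2m, the class I light chain, at 2.74-fold (adjusted p = 0.00991), and Pdia3, a chaperone of class I loading, at 2.18-fold (adjusted p = 0.0113; 0.0508 without pCAF replicate 2). In the reduced comparison the 4 lists, of 18, 11, 11 and 19 genes, gave 5, 3, 4 and 5 higher and 3, 3, 3 and 6 lower, in the order given. Of all genes, 25.9% were called higher there and 26.9% lower.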

How the data were processed

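The deposited table holds raw counts of reads per gene symbol in 7 libraries (3 pCAF, 4 NMF), made by the authors from 3′-end mRNA libraries, per the labels. The tools that the submitters' processing notes name are HTSeq, STAR 2.4.2a and bcl2fastq, with the build mm10 and no role for any of them. The annotation, strand setting, treatment of reads with several matches and any use of molecular identifiers are not given in the sources used here.

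Of the 24421 symbols, 7867 had no count. The 10535 genes that passed filterByExpr were fitted together with edgeR 4.0.16 (R 4.3.3; TMM factors, robust quasi-likelihood test, Benjamini-Hochberg adjustment over all genes, threshold 0.05). CPM values use TMM-scaled library sizes, and a library's distance from its group was taken on log2(CPM + 0.5). Ratios of catalytic subunits added 0.5 counts to each count and were compared by an exact two-sided permutation test over libraries. Shares carry Wilson 95% intervals. The fit was tested on simulated counts with planted changes; a gene that was not called may still differ, above all at small folds.

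Copies of 3′ ends were searched with blastn 2.17.0 in the mm10 transcripts of GENCODE M21 (last 300 bases, at least 80 bp at 95% identity); overlaps cover the last 1000 bases. Another promoter motif that was searched is not reported here.

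Members and lists were chosen with earlier results of these data known. Per library values are printed for the catalytic and immunoproteasome subunits, Psme1, Psme2, Psma7, Psmd1, up to 3 genes of each role with the smallest adjusted p and, after seeing the data, Tap1; from the pathway lists up to 4 genes by adjusted p are named, and others named there were chosen after seeing their values. Alternatives were DESeq2 1.42.0 (size factors, and its own test), library totals, no filter, thinning to the smallest library, a replicate block, each library left out, 2 counts added to ratios, and, added after seeing the data, leaving out pCAF replicate 1 and NMF replicate 4 together.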

Additional observations from a re-analysis of the deposited data

Results flagged for a closer look

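In 49 groups of 4 NMF libraries, 1 for each proteasome gene, the highest or lowest library was checked for a gap to its neighbor that is large against the range of the group. A gap this large arises by chance in about 1 in 20 groups, and 5 were found. NMF replicate 4 stood alone for 3 genes: Psma6 at 91.5 CPM (44.3 to 47.5 CPM in the other NMF libraries), Psma7 at 259 CPM (379 to 385 CPM) and Psmb3 at 36.4 CPM (103.5 to 107.7 CPM). NMF replicate 2 stood alone for Psmb8, at 325 CPM (234 to 243 CPM in the others), and for Psmd14, at 60.0 CPM (70.7 to 71.7 CPM). In pCAF the groups of 3 were not checked this way.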

How the results depend on the processing

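The count of proteasome genes higher in pCAF (14) was 9 with library totals, 14 with DESeq2 size factors, 18 with the DESeq2 test, 12 with no filter and 14 after thinning, and 9 to 18 with one library left out. The count lower in pCAF (2) was 0 to 3 with one library left out, 2 in those other settings, and 4 in the comparison of pCAF replicates 2 and 3 with NMF replicates 1 to 3, where 21 were higher. Over all genes, those higher (1503) ran from 1016 to 2021 and those lower (1491) from 979 to 2187 with one library left out, and were 2802 and 2913 without both libraries that stood apart. With the replicate block there were 9 proteasome genes higher and 1 lower, and 978 and 1023 over all genes; the replicate numbers are not stated to pair animals, and same-numbered libraries correlated at -0.09, 0.08 and -0.01 around their group means. The pair differences stayed below 0: with the block the differences were -1.01, -2.02 and -1.85 (exact sign-flip p = 0.25, the smallest possible), with one library left out -1.26 to -0.72 for Psmb8 over Psmb5, -2.19 to -1.56 for Psmb9 over Psmb6 and -2.10 to -1.70 for Psmb10 over Psmb7. Of the 16 called genes, 8 passed in all 14 alternatives: Psma1, Psma2, Psma3, Psma4, Psma6, Psmc6, Psmd10 and Psme4. Over 658 values of single genes under an alternative, 46 lost a call, 23 gained one and none turned a called direction. The cause of the moved counts was not tested. Low counts limit what can be said of Psmd9 and Psmf1.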
